A study of Mus musculus with 10 samples.

Results

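The fatty acid synthesis genes described here are the transcription factor gene Srebf1 and the enzyme genes Acly, Acss2, Acaca, Acacb, Fasn, Scd1, Scd2, Elovl6 and Me1. Every probe set of the array that names exactly 1 of these 10 genes was taken, which gave 25 of 45037 probe sets and 10 of 18193 named genes. Of the 25 probe sets, 16 were bright enough to be tested, and these belong to 9 of the 10 genes, since all 3 probe sets of Elovl6 fell below the filter on signal.

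Gastrocnemius muscle was compared between 5 D257A mice and 5 WT mice, all males of 13 months, with 1 array per mouse. D257A mice were PolgD257A/D257A, homozygous for a germline substitution that removes the proofreading of the mitochondrial DNA polymerase, so every tissue carries it. WT mice were Polg+/+, and both genotypes came from a mixed stock that had been backcrossed to C57Bl/6J. The comparison asks how the accumulation of mitochondrial DNA mutations bears on muscle gene expression.

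Fatty acid synthesis builds palmitate in the cytosol from acetyl-CoA. ATP citrate lyase and acetyl-CoA synthetase supply the acetyl-CoA, acetyl-CoA carboxylase turns it into malonyl-CoA, fatty acid synthase joins these units at the cost of NADPH, and elongases and desaturases then modify the product. Muscle makes little fat by this route compared with liver or adipose tissue, but its malonyl-CoA also holds back the entry of fatty acids into mitochondria.

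All signals are given after each array was scaled to a trimmed mean of 500. Levels are not compared between probe sets, except that marker sums add the signals of several. A share of such a sum describes signal, not transcripts. Differences are D257A minus WT on the log2 scale with the standard error (SE) from limma, and a probe set is said to be called when its adjusted p was under 0.05. The 12 skeletal muscle fibre genes listed as markers were all bright enough to be tested. Of 10 cochlea genes, looked at because a protocol line names that tissue, 7 fell below the filter, and their summed signal was between 432 and 673 in all mice. WT replicate 2 stands apart from the other WT mice: without it, the calls over the whole array went from 1662 to 3439, so the members are also given without it where it matters. All D257A mice have numbers that start with 2, whereas WT numbers start with 1, 2 or 3, and what that digit means is not stated. The mice numbered 2 are thus all D257A mice and, of the WT mice, replicates 3 and 4 alone. With the digit as a block, the log2 difference comes from the same mice. The block and the subset are therefore not separate checks of a difference.

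Acaca rose and Acss2 fell in D257A muscle, and no other member passed the test. Over the whole array 7.38% of the tested probe sets were called, 3.64% higher and 3.74% lower in D257A. Among the 16 tested member probe sets, 1 was called higher and 2, both of Acss2, were called lower, and 13 were not called. The genotypes did not overlap for 4 of the 16, beside 7.71% over the array: 2 probe sets on the higher side, of Acaca and Acly, and 2 on the lower side, both of Acss2. In these directions the shares over the array were 3.94% and 3.77%. Of the 16, 8 differences lay above 0 and 8 below it, with a median of 0.07, beside a median of -0.03 over all tested probe sets. The members did not move one way, and the results are those of single genes.

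**Figure D1:**
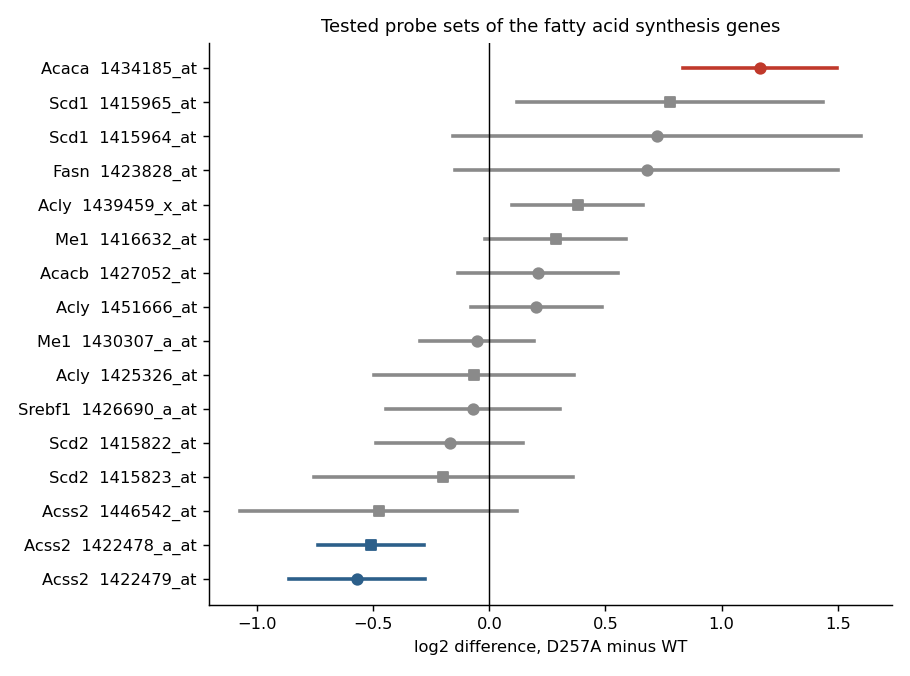
Log2 difference, D257A minus WT (horizontal axis), with its 95% interval for each of the 16 tested member probe sets. Circles mark the brightest probe set of a gene and squares its other probe sets, red and blue mark probe sets called higher and lower, and grey marks those not called. The interval of Acaca lies between 0.83 and 1.50 and those of the called Acss2 probe sets lie wholly below 0.

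Acaca encodes the cytosolic acetyl-CoA carboxylase, which makes the malonyl-CoA that fatty acid synthase uses. The signals of probe set 1434185_at were 838, 802, 603, 655 and 807 in D257A replicates 1 to 5. They were 307, 326, 277, 311 and 438 in WT replicates 1 to 5. Every D257A mouse was above every WT mouse, with a wide gap between the lowest D257A mouse and the highest WT mouse, WT replicate 5. Acaca thus differed by 1.17 on the log2 scale (SE 0.15, 95% interval 0.83 to 1.50), a 2.24-fold higher level (interval 1.78 to 2.82), with a limma adjusted p of 0.000900. It ranked 69 of 22518 by p. The exact permutation test over the 252 splits of the mice gave p = 0.00794, the smallest it can give (2-sided, n = 5 per genotype). The other Acaca probe set, 1427595_at, was too dim to be tested. Its signals ran from 43.1 to 119 in D257A and from 48.6 to 106 in WT, and the genotypes overlapped, so the rise rests on 1 probe set. Among the mice numbered 2 alone, the log2 difference of 1434185_at was 1.32.

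Acacb encodes the carboxylase at the outer mitochondrial membrane, whose malonyl-CoA acts on fatty acid entry, and it is the main form in muscle. The signals of 1427052_at were 6516, 5553, 4990, 5441 and 6465 in D257A replicates 1 to 5, and 4171, 7156, 4698, 5847 and 3735 in WT replicates 1 to 5. The genotypes overlapped, and WT replicate 2 was the highest of all 10 mice. Acacb had a log2 difference of 0.21 (SE 0.16, interval -0.13 to 0.55, limma adjusted p = 0.459), which leaves room for a rise of up to 1.47-fold. With single mice left out it ran from 0.11 without WT replicate 5 to 0.34 without WT replicate 2 (adjusted p = 0.0860). The other probe set, 1445754_at, was too dim to be tested, with signals no higher than 46.7.

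The difference between these paralogs was tested by the log2 ratio of Acaca to Acacb within each mouse, which does not depend on how an array is scaled. The ratio was -2.97 ± 0.11 (SD, n = 5) in D257A and -3.93 ± 0.53 (SD, n = 5) in WT, a difference of 0.95. The genotypes did not overlap, and the exact permutation test gave p = 0.00794, or 0.0159 after adjustment over the 2 paralog pairs tested. The WT spread was wide, from -4.46 in WT replicate 2 to -3.09 in WT replicate 5. The separation was narrow, since the lowest D257A mouse, D257A replicate 4, was at -3.06. Acaca and Acacb thus changed unequally between the genotypes.

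Acss2 encodes the acetyl-CoA synthetase of the cytosol and nucleus, which activates acetate. The signals of 1422478_a_at were 899, 935, 939, 873 and 992 in D257A replicates 1 to 5, and 1187, 1290, 1323, 1360 and 1450 in WT replicates 1 to 5. Every D257A mouse was below every WT mouse, and the D257A mice lay close together. This gave a log2 difference of -0.51 (SE 0.11, interval -0.74 to -0.28, limma adjusted p = 0.0114), a 1.42-fold lower level. It was -0.53 among the mice numbered 2 alone (adjusted p = 0.0266). The call was lost when each array was centred on its median (-0.38, adjusted p = 0.0607) and when the first digit of the mouse numbers entered the fit as a block (-0.53, adjusted p = 0.0599).

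The second Acss2 probe set, 1422479_at, gave 1303, 1135, 1013, 967 and 1032 in D257A replicates 1 to 5, and 2057, 1714, 1416, 1563 and 1379 in WT replicates 1 to 5. Again no D257A mouse reached the lowest WT mouse. The log2 difference was -0.57 (SE 0.14, interval -0.86 to -0.28, limma adjusted p = 0.0229), a 1.48-fold lower level. This call was the less stable of the pair, since it was lost in 8 of 21 alternatives. It was lost without D257A replicate 3, 4 or 5 and without WT replicate 1 or 4 (adjusted p = 0.0634, 0.0551, 0.0521, 0.0640 and 0.0507). It was also lost with the first digit of the mouse numbers as a block (-0.46, adjusted p = 0.143), among the mice numbered 2 alone (-0.46, adjusted p = 0.0824) and with median centring of the arrays (-0.44, adjusted p = 0.0638). The third probe set, 1446542_at, lay between 80.1 and 113 in D257A and between 86.1 and 263 in WT, with WT replicate 2 the highest. It was not called (log2 difference -0.48, SE 0.28, adjusted p = 0.326), and the value was -0.23 without WT replicate 2. All 3 differences had the same sign.

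**Figure D2:**
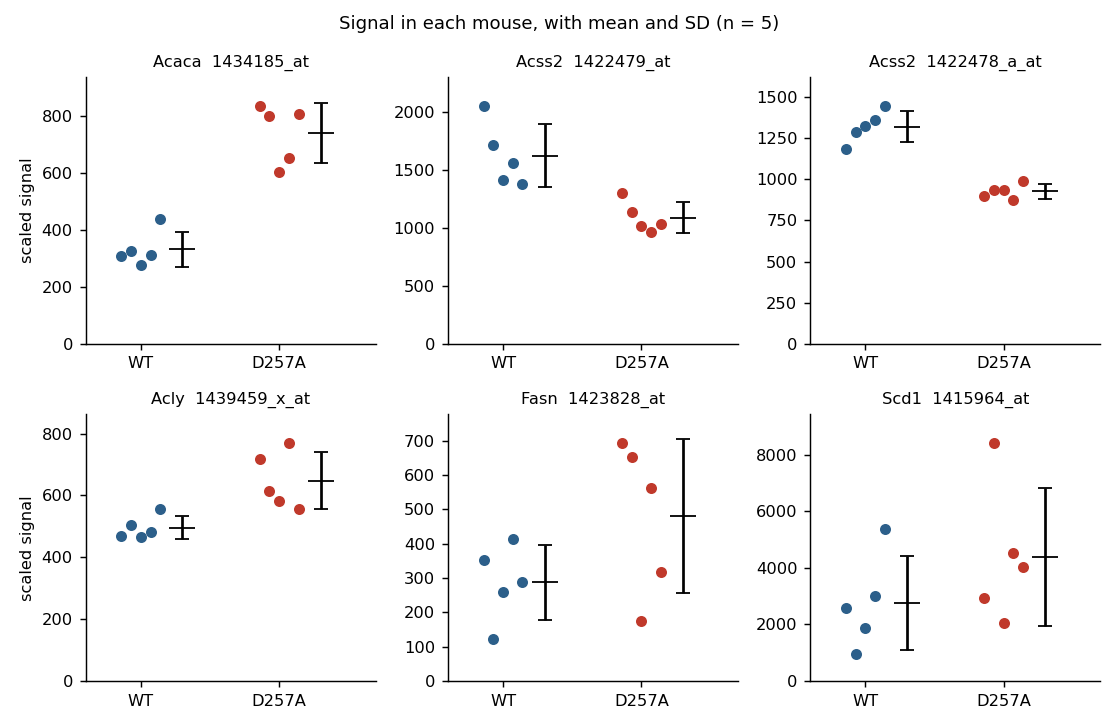
Scaled signal (vertical axes, from 0) in each of the 5 WT mice (blue) and 5 D257A mice (red) for 6 probe sets, with the mean and SD in black beside the points. Acaca and both Acss2 probe sets separate the genotypes, Acly 1439459_x_at separates them barely, and Fasn and Scd1 overlap with wide spread in D257A.

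The windows at the annotated starts of Acaca and Acss2, the members that changed, and of Fasn, the enzyme that uses malonyl-CoA, are shown. They are RefSeq windows on GRCm38.p6, from 250 bases before to 50 bases after the annotated start, written on the gene's strand. Capitals mark the CCAAT box (CCAAT, or ATTGG on the other strand) and the GC box (GGGCGG, or CCGCCC on the other strand). The Acaca window is chr11:84195188-84195487 (plus strand), that of Acss2 is chr2:155517793-155518092 (plus strand) and that of Fasn is chr11:120824498-120824797 (minus strand).
Acaca: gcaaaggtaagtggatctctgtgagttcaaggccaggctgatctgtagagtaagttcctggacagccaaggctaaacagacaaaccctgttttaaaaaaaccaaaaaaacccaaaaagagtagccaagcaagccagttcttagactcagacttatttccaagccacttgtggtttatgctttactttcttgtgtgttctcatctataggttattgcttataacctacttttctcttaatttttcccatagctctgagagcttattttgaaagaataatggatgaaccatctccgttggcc
Acss2: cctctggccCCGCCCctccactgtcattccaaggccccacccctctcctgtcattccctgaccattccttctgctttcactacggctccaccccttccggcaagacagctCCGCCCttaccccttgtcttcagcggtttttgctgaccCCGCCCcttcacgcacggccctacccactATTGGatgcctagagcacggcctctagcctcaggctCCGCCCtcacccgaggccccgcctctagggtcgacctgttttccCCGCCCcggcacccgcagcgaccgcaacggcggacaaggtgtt
Fasn: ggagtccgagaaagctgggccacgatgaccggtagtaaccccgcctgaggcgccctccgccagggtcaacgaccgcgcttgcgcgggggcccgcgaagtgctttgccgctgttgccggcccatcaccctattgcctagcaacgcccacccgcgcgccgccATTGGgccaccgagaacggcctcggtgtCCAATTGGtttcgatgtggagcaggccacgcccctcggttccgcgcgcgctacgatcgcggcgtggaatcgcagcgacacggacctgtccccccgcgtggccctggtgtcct
The Acaca window held neither motif. Just before its annotated start it reads like the end of an intron, so it may not be a promoter. Its lack of motifs is therefore not compared with the other windows. The Acss2 window held 1 CCAAT box, 73 bases before the start, and 5 GC boxes. The Fasn window held 3 CCAAT boxes, which begin 90, 62 and 59 bases before the start, and the last of these overlaps the one before it. Windows were found for 8 of the 10 genes, 11 windows in all. Of these, 7 held a CCAAT box and 5 a GC box, beside 37.4% and 35.7% of all 32851 windows. The sterol regulatory element, searched as TCACNCCAC, and the E-box, CACGTG, were in 0 of the 11 windows, beside 1.24% and 7.15% of all windows. Both strands were searched. These matches describe the letters in the windows only. Scd1 and Scd2 are named without a window.

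Srebf1 encodes the transcription factor that drives the genes of fatty acid synthesis in response to insulin. The signals of its only probe set, 1426690_a_at, were 1102, 1051, 1375, 1228 and 1068 in D257A replicates 1 to 5, and 1625, 835, 1546, 1208 and 1057 in WT replicates 1 to 5. The D257A mice lay inside the range of the WT mice. The log2 difference was -0.07 (SE 0.17, interval -0.45 to 0.30, limma adjusted p = 0.844). Its sign turned when each array was centred on its median (0.06) and without WT replicate 1 (0.03) or 3 (0.01), so no direction is read from it.

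Acly encodes ATP citrate lyase, the main source of cytosolic acetyl-CoA. It has 6 probe sets, of which 3 were tested, and they did not give a common answer. The signals of 1439459_x_at were 719, 615, 582, 770 and 556 in D257A replicates 1 to 5, and 469, 504, 465, 482 and 556 in WT replicates 1 to 5. The genotypes were separated only by the distance between D257A replicate 5 and WT replicate 5, which round to the same value. The log2 difference of 0.38 (SE 0.13, unadjusted interval 0.10 to 0.66) was not called (limma adjusted p = 0.0940, unadjusted exact permutation p = 0.00794). It passed when each array was centred on its median (0.51, adjusted p = 0.0403) or weighted by its quality (0.41, adjusted p = 0.0293). The brightest probe set, 1451666_at, lay between 737 and 1081 in D257A and between 696 and 880 in WT (log2 difference 0.20, SE 0.13, adjusted p = 0.379). The third, 1425326_at, lay between 159 and 222 in D257A and between 155 and 272 in WT (log2 difference -0.07, SE 0.20, adjusted p = 0.879). The other 3 probe sets had mean signals of at most 50.3 in either genotype and were not tested.

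Fasn encodes fatty acid synthase. The signals of its only probe set, 1423828_at, were 693, 653, 175, 561 and 319 in D257A replicates 1 to 5, and 352, 123, 259, 414 and 290 in WT replicates 1 to 5. The D257A mice were spread widely: 3 of them were above every WT mouse, while D257A replicate 3 was below 4 of the 5 WT mice. Fasn had a log2 difference of 0.68 (SE 0.38, interval -0.15 to 1.50, limma adjusted p = 0.310). With single mice left out it ran from 0.40 without WT replicate 2 (adjusted p = 0.454) to 1.00 without D257A replicate 3 (adjusted p = 0.106), and it was 0.38 among the mice numbered 2 alone (adjusted p = 0.650). The interval reaches a 2.83-fold higher level, so the arrays do not settle whether Fasn differed.

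Scd1 encodes the stearoyl-CoA desaturase that makes monounsaturated fatty acids in lipogenic tissues. The signals of 1415964_at were 2922, 8412, 2060, 4532 and 4011 in D257A replicates 1 to 5, and 2589, 963, 1886, 2985 and 5369 in WT replicates 1 to 5. D257A replicate 2 was the highest mouse and WT replicate 2 the lowest, and the others overlapped. The log2 difference was 0.72 (SE 0.41, interval -0.16 to 1.60, limma adjusted p = 0.311), and with single mice left out it ran from 0.40 without WT replicate 2 to 1.02 without WT replicate 5. The second probe set, 1415965_at, lay between 133 and 419 in D257A and between 91.6 and 190 in WT. Its log2 difference was 0.78 (SE 0.31, unadjusted interval 0.12 to 1.44, limma adjusted p = 0.142). Neither was called.

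Scd2 encodes a related desaturase found in many tissues. The signals of 1415822_at lay between 714 and 1033 in D257A and between 814 and 1290 in WT, and those of 1415823_at between 81.8 and 186 and between 99.5 and 210. D257A replicate 3 was the lowest of all mice for both probe sets. The log2 differences were -0.17 (SE 0.15, limma adjusted p = 0.527) and -0.20 (SE 0.26, adjusted p = 0.698), and the third probe set, 1415824_at, was too dim to be tested. Among the runs with 1 mouse left out, both differences were nearest to 0 without D257A replicate 3, at -0.076 (adjusted p = 0.820) and -0.0034 (adjusted p = 0.996). The log2 ratio of Scd1 to Scd2 within each mouse was 2.08 ± 0.63 (SD, n = 5) in D257A and 1.19 ± 0.84 (SD, n = 5) in WT. The difference of 0.89 did not pass (exact permutation p = 0.111, adjusted p = 0.111), and the genotypes overlapped. It was 1.11 without WT replicate 5 (exact p = 0.0476) and 0.58 without WT replicate 2 (exact p = 0.222).

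Elovl6 encodes the elongase that extends palmitate to stearate. The brightest of its 3 probe sets, 1417404_at, had signals of 79.2, 76.2, 55.5, 89.9 and 88.9 in D257A replicates 1 to 5, and 51.5, 61.2, 90.5, 22.9 and 93.5 in WT replicates 1 to 5. The genotypes overlapped, and at this signal no test was made. The other 2 probe sets, 1442656_at and 1417403_at, had mean signals between 20.4 and 53.1.

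Me1 encodes the cytosolic malic enzyme, which gives NADPH. The signals of 1416632_at were 6386, 7435, 6943, 6731 and 7046 in D257A replicates 1 to 5, and 6481, 3720, 6396, 5945 and 6340 in WT replicates 1 to 5. Apart from WT replicate 2, which was far below the rest, the WT mice lay just under or within the D257A range. The log2 difference was 0.29 (SE 0.14, interval -0.02 to 0.59, limma adjusted p = 0.241), and 0.13 without WT replicate 2. The other probe set, 1430307_a_at, lay between 6000 and 7072 in D257A and between 5076 and 7658 in WT, with a log2 difference of -0.05 (SE 0.11, adjusted p = 0.826). With single mice left out it ran from -0.15 without WT replicate 2 (adjusted p = 0.233) to -0.0059 without WT replicate 1 (adjusted p = 0.986).

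**Figure D3:**
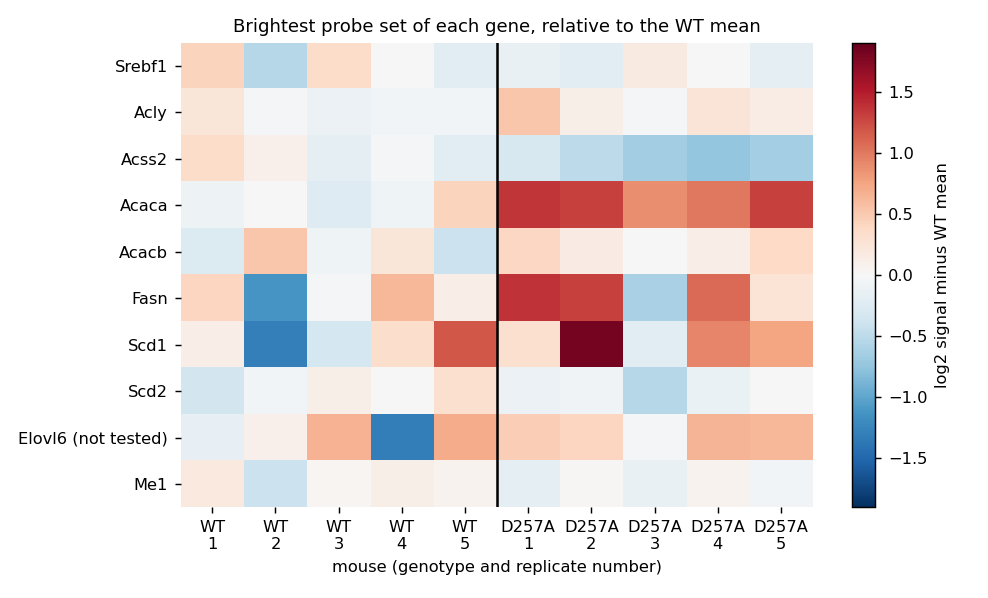
Log2 signal of the brightest probe set of each of the 10 genes (rows) in each mouse (columns, WT left and D257A right of the line), relative to the WT mean of that probe set. Acaca is raised in all 5 D257A mice and Acss2 is lowered in all 5, while Fasn and Scd1 differ between mice of 1 genotype, with WT replicate 2 the lowest for both.

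The members were compared with one another over the 10 mice after each genotype mean was subtracted. Of the 36 pairs of brightest probe sets, 4 had an unadjusted p under 0.05 for Pearson's r and 2 for Spearman's rho, and 0 passed after adjustment by either (lowest adjusted p = 0.387 for r and 0.425 for rho, exact test over 14400 re-pairings within genotypes). Scd1 and Me1 passed before adjustment by both, with r = 0.75 (exact p = 0.0256) and rho = 0.73 (exact p = 0.0283), and r was 0.66 without the 2 mice farthest from the median of Scd1. Srebf1 and Acaca passed by rho alone (-0.75, exact p = 0.0118; r = -0.60, exact p = 0.0956), and r was -0.90 without the 2 mice farthest from the median of Srebf1. The other 3 pairs passed by r alone. In each, r was lower without the 2 mice farthest from the median of its first gene. Acly and Acss2 had r = 0.75 (exact p = 0.0184; rho = 0.62, exact p = 0.0584), which was 0.043 without them. Fasn and Scd1 had r = 0.68 (exact p = 0.0430; rho = 0.49, exact p = 0.165), which was 0.12 without them. Fasn and Me1 had r = 0.67 (exact p = 0.0342; rho = 0.44, exact p = 0.215), which was 0.096 without them. Leaving out the extremes of 1 gene narrows its range, which alone can lower r. These drops therefore do not show that an r rests on those mice. The 5 genes outside the set whose signal followed that of Fasn most closely were 1110046J04Rik, Atp6v0a2, Otub2, Cyb5d2 and Dis3l, with r from 0.91 to 0.94 over 10 mice. They were picked as the highest of 11215 genes, which favours high values, and their r was not tested. Scd1 ranked 370 of these genes by its r with Fasn.

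Lipogenic genes are abundant in adipocytes, and bulk muscle can hold some fat, so the adipocyte markers were set beside the members. All 9 adipocyte markers named here were bright enough to be tested. 1 of the 9 was called, Retn, which encodes resistin (log2 difference 1.18, limma adjusted p = 0.0452), and that call was lost in 10 of 20 alternatives, among them without any 1 D257A mouse or without WT replicate 3 (adjusted p up to 0.108). Of the 9 log2 differences, 4 were above 0 and 5 below, from 1.18 for Retn to -1.18 for Lep, the leptin gene (adjusted p = 0.165). The summed signal of the 9 ranged from 21421 to 32060 in D257A and from 16099 to 28812 in WT. Fabp4, a fatty acid carrier abundant in adipocytes, gave 74.7% to 87.1% of each mouse's sum (log2 difference 0.43, adjusted p = 0.0808). The sum thus mostly follows 1 gene. Without Fabp4 the sums were 2884 to 6243 in D257A and 2075 to 6583 in WT. WT replicate 2 had the lowest sum, with or without Fabp4, and also the lowest signal of the brightest probe sets of Fasn, Scd1, Srebf1 and Me1. The order was not shared throughout: D257A replicate 4 had the lowest sum of its genotype with a Fasn signal of 561, and D257A replicate 3 had a sum of 29728 (4318 without Fabp4) with the lowest Fasn signal of its genotype. For Acaca and Acss2, WT replicate 2 was inside the range of the other WT mice for the called probe sets. The part of adipocytes in these differences was not tested, and in bulk tissue fewer cells of a type and less RNA per cell cannot be told apart. Of the macrophage markers, 3 of 7 were called higher, Lyz2, Mrc1 and Cd163, beside 3.71% of all genes. The count was 1 to 4 over the alternatives by limma, and 1 with the first digit as a block, without D257A replicate 5 or without WT replicate 1. Their summed signal was 7220 to 11160 in D257A and 6210 to 7273 in WT. Of the fibroblast markers, 3 of 6 were called lower, the collagen genes Col1a1, Col1a2 and Col3a1, beside 3.52% of all genes. The count was again 1 to 4, and 1 with the block, with no variance trend and without any single WT mouse other than WT replicate 2. By the methods' test, 1 marker of each of these lists passed on log2 signals and 0 on linear signals. The sums were 20754 to 24680 in D257A and 20819 to 34094 in WT. Among the endothelial markers, 1 of 6 was called higher, Vwf, beside 3.71% of all genes. That call was kept in 20 of 20 alternatives (log2 difference 0.76 to 0.99). The 6 differences were split, 3 above 0 and 3 below. Endothelial sums were 4050 to 5553 in D257A and 3660 to 4599 in WT.

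The surrounding pathways were read from 8 lists of 149 genes, of which 124 were tested. In all, 9 genes were called higher, 3 lower and 112 not called, beside 3.71% and 3.52% of all genes called in these directions. The list of acetyl-CoA and NADPH supply had 3 of 19 called higher, with a median of 0.13 beside -0.01 over all genes. Its largest difference was that of Aacs, the cytosolic acetoacetyl-CoA synthetase, which turns ketone bodies into a substrate for lipid synthesis. The signals of Aacs were 880, 773, 460, 539 and 750 in D257A replicates 1 to 5, and 76.0, 130, 106, 80.2 and 71.6 in WT replicates 1 to 5. No WT mouse came near a D257A mouse (log2 difference 2.87, SE 0.22, limma adjusted p = 1.56e-05), and the call held in all 19 alternatives. The WT signals were dim, near the filter on signal, so the size is less certain. It was 2.50 with an offset of 32 added to the signals. Tkt, the transketolase of the pentose phosphate pathway, was between 2913 and 4663 in D257A and between 748 and 1324 in WT (1.72, SE 0.17, adjusted p = 0.000169, called in 20 of 20 alternatives). H6pd, which makes NADPH in the endoplasmic reticulum, rose by less (0.59, SE 0.11, adjusted p = 0.00522) and lost its call only with no further scaling (adjusted p = 0.0558). Slc25a1, the mitochondrial citrate carrier, was not called (-0.12, adjusted p = 0.819).

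The triglyceride list had 2 of 22 genes higher and 1 lower, with a median of -0.26. Dgat2, the acyltransferase of the last step of triglyceride synthesis, fell. Its signals were 1111, 1497, 1143, 1012 and 1394 in D257A replicates 1 to 5, and 2814, 2518, 2176, 2581 and 1924 in WT replicates 1 to 5. All D257A mice were below all WT mice (log2 difference -0.97, SE 0.14, limma adjusted p = 0.00189), and the call held in 20 of 20 alternatives. Lpin1, a phosphatidate phosphatase, rose (0.61, SE 0.13, adjusted p = 0.0148, called in 17 of 20 alternatives), although WT replicate 2 (23376) was inside the D257A range of 22087 to 27727. Agpat3, an acyltransferase earlier in the pathway, was called higher (0.49, adjusted p = 0.0265) in 13 of 20 alternatives.

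The regulators held 1 called gene of 21, the insulin signalling kinase Akt1 (1.15, SE 0.30, adjusted p = 0.0331). WT replicate 2 had an Akt1 signal of 1955, above every D257A mouse, while the other WT mice lay between 501 and 592, and the call was kept in 8 of 20 alternatives. Mlxipl, which encodes the carbohydrate-responsive factor ChREBP, was not called (0.22, adjusted p = 0.509), nor was Insig1, which retains SREBP precursors in the endoplasmic reticulum (-0.11, adjusted p = 0.775). Thrsp, a lipogenic gene responsive to thyroid hormone, had the signals 1990, 1524, 720, 1140 and 1219 in D257A replicates 1 to 5, and 747, 659, 726, 1038 and 811 in WT replicates 1 to 5. D257A replicate 3 was within the WT range and the others above it, and the difference was not called (0.67, SE 0.23, adjusted p = 0.0891).

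Of the other lists, malonyl-CoA turnover and AMPK had 1 of 14 genes higher, the AMPK subunit gene Prkab2 (0.41, adjusted p = 0.0496, called in 6 of 20 alternatives). Mlycd, which degrades malonyl-CoA, was not called (-0.22, adjusted p = 0.498). Mitochondrial fatty acid synthesis had 1 of 10 lower, Ndufab1, the mitochondrial acyl carrier protein (-0.37, adjusted p = 0.0329, called in 7 of 20). Of the 10 tested elongases and desaturases, 0 were called by limma and 0 by the methods' test, and 2 had an unadjusted p under 0.05, with a median of 0.24. Acyl-CoA synthetases and thioesterases had 1 of 11 higher, Acsl6 (0.50, adjusted p = 0.0186, called in 15 of 20), and 1 lower, Acot7 (-0.76, adjusted p = 0.0347, called in 8 of 20). Cholesterol synthesis had 1 of 17 higher, the squalene synthase gene Fdft1 (0.61, adjusted p = 0.0368, called in 7 of 20). By the methods' test, 7 of the 124 genes passed on log2 signals and 6 on linear signals after Benjamini-Hochberg adjustment, with 0 among the regulators, the AMPK list and cholesterol synthesis. Of the 12 called genes, 3 held in every alternative run by limma, which were Aacs, Tkt and Dgat2. Each rests on the brightest tested probe set of its gene alone. The mean over a gene's probe sets was not run for these lists. Leaving out a single mouse did not end the calls of H6pd and Lpin1. It ended that of Acsl6 without D257A replicate 1 or WT replicate 1, 3 or 4 (adjusted p up to 0.0558) and that of Agpat3 without D257A replicate 1 or 5 or WT replicate 1, 3 or 4 (up to 0.0736). For Prkab2, Acot7 and Fdft1 it did so for 8 of the 10 mice (up to 0.111, 0.0941 and 0.0987), and for Akt1 and Ndufab1 for 9 of 10, all but WT replicate 2 (up to 0.0856 and 0.0872).

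**Figure D4:**
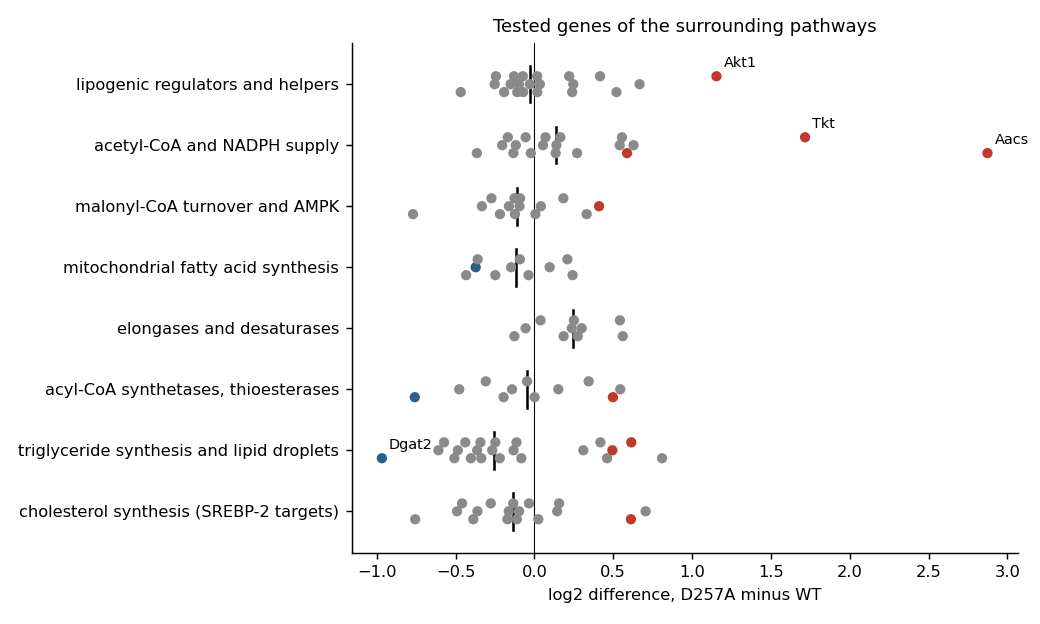
Log2 difference, D257A minus WT (horizontal axis), of each of the 124 tested genes of the 8 pathway lists (rows), with the list's median as a black line; red and blue mark genes called higher and lower and grey those not called, and the 4 called genes with the largest differences carry their names. Aacs and Tkt stand to the right of every other gene and Dgat2 to the left.

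**Figure D5:**
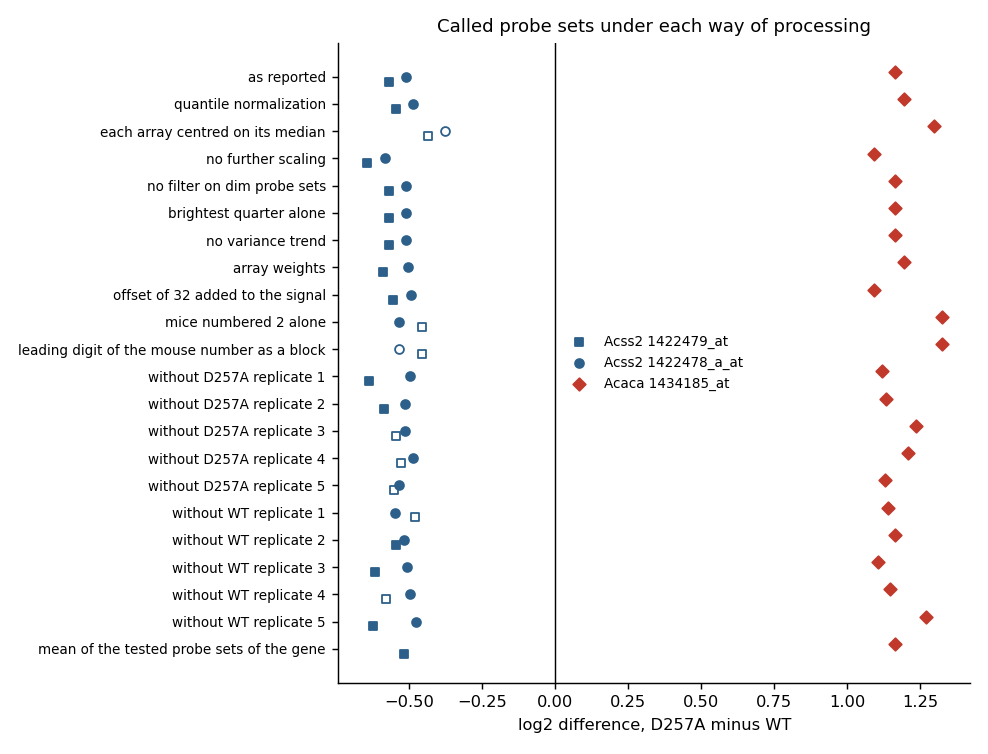
Log2 difference, D257A minus WT (horizontal axis), of the 3 called member probe sets as reported and under each alternative run by limma (rows). Filled symbols are called and open symbols are not. Acaca is filled in every row, from 1.09 to 1.32, Acss2 1422478_a_at is open in 2 rows and Acss2 1422479_at in 8.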

How the data were processed

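RNA from gastrocnemius of 10 mice was hybridized to Affymetrix mouse genome arrays. The deposited intensity values are 1 linear signal per probe set and array, made by the authors with GCOS 1.3 per the labels; which signal algorithm was run is not stated there. A stated scaling to 500 is not seen in the columns, whose means trimmed by 2% at each end lay between 93.4 and 106 in D257A and between 94.5 and 129 in WT, so each array was scaled to 500.

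Of 45101 probe sets, 64 controls were set aside, and 22518 were kept, those whose log2 mean exceeded the median (6.26). They were compared by limma 3.58.1 (R 4.3.3, trended eBayes, no covariates, Benjamini-Hochberg over all tested). Symbols came from the platform annotation: 34945 probe sets had 1 symbol, 932 several and 9160 none here. A gene was represented by its brightest probe set. The fit was tested on simulated data. Permutation tests and figures used Python 3.11.15, NumPy 2.4.6, SciPy 1.17.1, pandas 2.3.3 and matplotlib 3.10.9.

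The members and gene lists were chosen with earlier results of these data known. All members were named, up to 4 called genes of each pathway list with the smallest adjusted p, some pathway genes whatever their values, marker genes where a range needed them, and the 5 genes most correlated with Fasn. Among these, G6pdx and Cpt1b have no probe set that names them alone here. Replicate numbers follow accession order and pair no mice. With 1 array per mouse, the tests set the genotype difference against the spread between mice, which array noise enters too. In limma that spread is moderated over all tested probe sets. Alternatives were other scalings, filters, variance models and an offset of 32, the methods' test, the mouse number's leading digit, and each mouse left out. For the members alone, the mean over a gene's probe sets was also run. The methods' test entered counts of calls only, not the alternatives given for a single probe set.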

Additional observations from a re-analysis of the deposited data

Results flagged for a closer look

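Single mice were compared with the others of their genotype for each tested member probe set. The measure was the gap to the nearest mouse divided by the whole range, against a critical value of 0.71 for 5 mice. Gaps and ranges were taken on log2 signals, while the signals printed below are linear, so the ratios do not follow from them directly. Of 32 groups, 5 were above it, and chance alone marks about 1 in 20 groups. Both Me1 probe sets had a low signal in WT replicate 2: 3720 against 5945 to 6481 for 1416632_at (gap ratio 0.845) and 5076 against 6893 to 7658 for 1430307_a_at (gap ratio 0.744). Both Scd2 probe sets had a low signal in D257A replicate 3: 714 against 956 to 1033 for 1415822_at (gap ratio 0.791) and 81.8 against 147 to 186 for 1415823_at (gap ratio 0.714). Acly 1451666_at had a high signal in WT replicate 1, 880 against 696 to 741 (gap ratio 0.732). Probe sets of 1 gene are not independent of each other.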

How the results depend on the processing

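Acaca was called in all 21 alternatives run by limma (log2 difference 1.09 to 1.32, adjusted p 9.28e-05 to 0.00637). For Acaca, which has 1 tested probe set, the mean over the gene's probe sets repeats that probe set. Acss2 1422478_a_at was called in 18 of 20 and 1422479_at in 13 of 21, and both kept their sign. With each array centred on its median the median of all tested probe sets was 0.10, and with no further scaling -0.10. The split of the calls was 819 higher and 843 lower as reported, 1599 and 418 with median centring, and 356 and 856 with no further scaling. The calls over all probe sets were 3968 with array weights, 1033 and 994 with the methods' test on log2 and on linear signals, and 562 with the leading digit as a block. Leaving out single mice gave 894 to 3439 calls, fewer by over 1.5 times without D257A replicate 1, 3 or 5 and without WT replicate 1, 3 or 4. The block left 1 member call, and leaving out single mice left 2 to 3. Pathway genes called higher numbered 18 with median centring, 2 with no further scaling, 5 with no variance trend, 16 with array weights, 5 with the block and 4 to 16 with single mice left out. Those called lower numbered 1 with median centring, with no filter, with no variance trend and with the block, 13 with array weights, 6 among the mice numbered 2 alone and 1 to 6 with single mice left out. The highest of both ranges came without WT replicate 2; the higher count was 4 or 5 without D257A replicate 1 or 5 or WT replicate 1, and the lower count was 1 without D257A replicate 1, 2, 3 or 5 or WT replicate 1, 3 or 4. Signs reversed for small differences only: Srebf1 (0.062 with median centring, -0.21 to 0.032 with a mouse left out), Acly 1425326_at (0.068 with median centring, 0.018 among mice numbered 2 and with the block, -0.16 to 0.041 with a mouse left out) and Me1 1430307_a_at (0.081 with median centring, 0.12 as the mean of its probe sets). The Scd1 to Scd2 difference was 0.58 to 1.11 with single mice left out and passed without WT replicate 5 (1.11). The cause was not tested. No paired analysis was made, since each array is a different mouse of 1 genotype and the labels pair no mice. 5 mice per genotype limit the precision, and the dim Elovl6 probe sets could not be tested.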
